A study of Homo sapiens with 6 samples.

Results

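The Notch receptors, ligands and fringes described here are 10 genes of the 29153 listed for HepG2, a human cell line derived from a liver tumour. They are 4 receptors (NOTCH1, NOTCH2, NOTCH3 and NOTCH4), 3 ligands (JAG1, JAG2 and DLL3) and 3 fringe glycosyltransferases (LFNG, MFNG and RFNG), and each was found by its symbol in the deposited table. The libraries came from cells that received lentivirus with a short hairpin RNA against the long noncoding RNA LINC01977 (sh-LINC01977, 3 libraries, with the titles HepG2_sh3) or with a control hairpin (sh-NC, 3 libraries), and all were taken at 72 h. Both groups therefore carried a lentivirus, and the study's methods describe selection of infected cells with puromycin. The comparison rests on a single hairpin. The study's methods say in general that experiments were run at least 3 times. Nothing states that the 3 libraries of a group came from separate cultures, so p-values measure the spread between these libraries, which may be technical.

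Notch signaling passes between neighbouring cells. A ligand of the Jagged or Delta-like family on one cell binds a Notch receptor on the next, proteases then cut the receptor, and its intracellular part moves to the nucleus, where it joins the DNA-binding protein RBPJ and a Mastermind coactivator. Fringe enzymes add a sugar to the receptor in the Golgi and so change which ligands it answers to. In liver, JAG1 and NOTCH2 are best known for their role in forming bile ducts, and loss of either in humans causes Alagille syndrome.

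The total counts of the libraries ranged from 49929024 to 60441515, and Pearson correlations between libraries, on a log2 scale of counts divided by library size, were at least 0.978 within a group and at most 0.973 across groups. LINC01977, the targeted gene, had 4, 0 and 16 counts in controls against 0, 0 and 4 counts with the hairpin (edgeR quasi-likelihood, adjusted p = 0.580), so a reduction was not detectable at this depth. The study reports that it checked the knockdown in HepG2 cells by qRT-PCR, which is not analysed here. The 12 hepatocyte and HepG2 markers all passed the filter described next, with AFP at a mean of 1145 FPKM. In sh-LINC01977 cells 7 of the 12 fell, 1 rose and 4 did not pass the test, and their summed level was 3450 to 3536 FPKM against 4691 to 5079 FPKM in sh-NC cells. In bulk RNA, fewer cells of a type and less RNA per cell cannot be told apart, and the part of these marker changes in the results below was not tested.

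Levels are given in FPKM, the fragments of a gene scaled to its transcript length and to the size of the library, which allow genes of different length to be compared. Fold changes are log2 values from the deposited counts, as sh-LINC01977 over sh-NC, from edgeR's quasi-likelihood test. A gene was taken as well measured when its mean over the 6 libraries was at least 0.5 FPKM, and 13452 genes were tested together on that ground. Of the 10 genes, 5 were well measured, namely JAG1, RFNG, NOTCH2, MFNG and LFNG. The other 5, NOTCH1, DLL3, NOTCH3, NOTCH4 and JAG2, fell below the filter and were read from a fit of all listed genes. NOTCH1 was just under it at 0.443 FPKM and had between 138 and 405 counts per library, while the remaining 4 lay between 0.106 and 0.228 FPKM with 16 to 127 counts per library.

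Before the values, the sequences that bear on whether a count can belong to another gene are given. The longest coding transcript of NOTCH2 in GENCODE 29 (ENST00000256646.6, 11389 nt, 34 exons) was cut into all its 50-base words, and 4.65% of them also occur in transcripts of 5 other genes, among them NOTCH2NLA, which the table lists as NOTCH2NL, and AC239799.1. All shared words lie within the first 971 nt, in exons 1 to 4, so 95.35% of the words are found in NOTCH2 alone. The primer pair that the study lists for measuring NOTCH2 by qRT-PCR is shown because it lies outside that shared part. Each primer matched NOTCH2 and no other gene, in the coding part of exon 6, on the minus strand of chromosome 1 in GRCh38. The forward primer covers chr1:119969652-119969671 and the reverse primer, which is antisense to the transcript, chr1:119969585-119969607.
Forward primer in exon 6 of NOTCH2: caaccgcaatggaggctatg
Reverse primer in exon 6 of NOTCH2: gcgaaggcacaatcatcaatgtt

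For NOTCH1, NOTCH3, JAG1, DLL3, LFNG, MFNG and RFNG, 0 of the 50-base words of the longest coding transcript occurred in another gene. In NOTCH4 0.747% did, all in GPSM3, and in JAG2 7.28% did, in AL512356.1, which is not among the listed genes. These shares cover the strand of each gene, and genes on the opposite strand also overlap some members. AL592301.1 lies over 955 bases of NOTCH1 with no shared exonic base, AL050403.2 over 1180 bases of JAG1 with 79 shared exonic bases and 11 counts in 1 of the 6 libraries, and GPS1 over part of RFNG, as described with that gene. MIR6870 and MIR4648 lie within JAG1 and LFNG, with at most 5 counts per library.

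JAG1 was the most abundant of the 10 genes in either group, followed by RFNG. In sh-NC cells the order continued with NOTCH2, MFNG, LFNG, NOTCH1 and DLL3, and ended with NOTCH3, NOTCH4 and JAG2. MFNG and LFNG overlapped in sh-NC libraries, as did NOTCH3 with NOTCH4 and NOTCH4 with JAG2. In sh-LINC01977 cells NOTCH2 came after MFNG and LFNG, and the ranges of these 3 genes overlapped. NOTCH4, JAG2 and NOTCH3 stood within each other's range there, at means of 0.167, 0.165 and 0.164 FPKM.

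**Figure D1:**
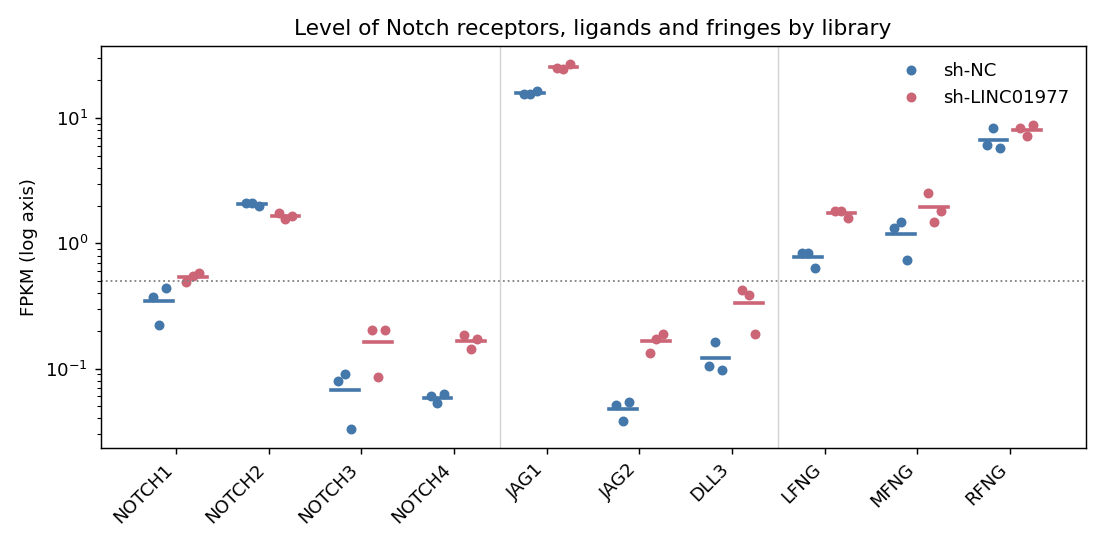
FPKM (log axis) of the 10 genes in each library, with 1 point per library, a bar at the group mean, sh-NC in blue and sh-LINC01977 in red, and the filter of 0.5 FPKM as a dotted line. JAG1 rises from 15.9 to 25.6 FPKM while NOTCH2 falls from 2.06 to 1.65 FPKM, and NOTCH3, NOTCH4, JAG2 and DLL3 stay under the dotted line in every library.

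At an adjusted p under 0.05, JAG1, LFNG, NOTCH4 and JAG2 were higher and NOTCH2 was lower in sh-LINC01977 cells, and NOTCH1, NOTCH3, DLL3, MFNG and RFNG did not pass the test. Among the 5 well measured genes 2 were called higher, against 7.05% of the tested genes, and 1 lower, against 8.07%. These shares stand for 948 genes higher and 1085 lower, a balance that turned to 1455 higher and 768 lower when counts were scaled by library totals alone and to 1269 and 729 with limma on log2(FPKM + 0.1). Among the 5 genes below the filter 2 were called higher, against 0.541% of the 15701 genes there and 1.49% of the 4237 genes in their own range of 0.106 to 0.443 FPKM. With so few genes, these shares describe the 10 genes and were not tested as a list.

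NOTCH2 (ENSG00000134250, chr1:119911553-120069626, minus strand) was the main receptor transcript. Its level was 2.11, 2.10 and 1.98 FPKM in controls against 1.75, 1.57 and 1.65 FPKM with sh-LINC01977. Each sh-LINC01977 library lay below each control library, and the mean fell from 2.06 ± 0.069 to 1.65 ± 0.091 FPKM (SD, n = 3 each). The fold change from counts was -0.38 on the log2 scale, with a standard error (SE) of 0.066 and a 95% interval from -0.54 to -0.23 (adjusted p = 0.0115). With limma on log2(FPKM + 0.1) the change was -0.30, with an adjusted p of 0.0668, which no longer passed. NOTCH2NL, a partial copy with which the first exons are shared, had 167 to 253 counts in controls against 223 to 266 with sh-LINC01977, and its log2 fold change of 0.29 did not pass the test (adjusted p = 0.334).

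NOTCH1 (ENSG00000148400, chr9:136494444-136545862, minus strand), the receptor best known from T-cell leukaemia, was the next in level. It had 0.372, 0.225 and 0.439 FPKM in controls against 0.493, 0.549 and 0.580 FPKM with sh-LINC01977. The groups did not overlap, but the second sh-NC library stood well below the others of its group. Its log2 fold change came to 0.56 with a 95% interval from -0.02 to 1.14, and it did not pass the test (adjusted p = 0.308). It was 0.32 without that library and 0.77 without sh-NC library 3.

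NOTCH3 (ENSG00000074181, chr19:15159038-15200981, minus strand) is the receptor of vascular mural cells. Its counts were 53, 54 and 23 in controls against 127, 61 and 118 with sh-LINC01977. The second sh-LINC01977 library, at 0.0864 FPKM, lay within the control range of 0.0327 to 0.0905 FPKM, while the other two were at 0.202 and 0.203 FPKM. On the log2 scale the change was 1.18 with an SE of 0.47, and it did not pass the test (adjusted p = 0.251). Among 6 listed markers of mural cells and fibroblasts, PDGFRB was the 1 called higher, with a log2 fold change of 1.47 (adjusted p = 0.00620), and the others did not pass the test. RGS5, a marker of pericytes, had a log2 fold change of 0.80 (unadjusted p = 0.00868, adjusted p = 0.106), and its FPKM groups did not overlap. CSPG4, another pericyte marker, had a log2 fold change of -1.02 (adjusted p = 0.453), and its FPKM groups did not overlap either, with the lower values in sh-LINC01977 libraries. The summed level of the 6 markers, almost all ACTA2, ranged from 16.97 to 17.99 FPKM in controls and from 17.19 to 20.48 FPKM with sh-LINC01977, so that the groups overlapped, with COL3A1 and THY1 under 0.02 FPKM in both group means. The part of such markers in the NOTCH3 values was not tested.

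NOTCH4 (ENSG00000204301, chr6:32194843-32224067, minus strand), a receptor known mainly from endothelial cells, was close to zero in both groups but was separated by group. It had 41, 33 and 46 counts in controls against 121, 104 and 104 counts with sh-LINC01977, which is 0.0586 ± 0.0048 and 0.167 ± 0.022 FPKM (SD, n = 3 each). From counts the log2 change was 1.41 with an SE of 0.24 (adjusted p = 0.0163). The adjusted p was 0.0526 without the second sh-NC library, 0.0601 without the first sh-LINC01977 library and 0.0557 without the third, while the log2 fold changes of 1.34, 1.33 and 1.39 stayed close to that from all libraries. With limma on log2(FPKM + 0.1) the log2 fold change was 0.75 (adjusted p = 0.0745), and on log2(FPKM + 1) it was 0.14 (adjusted p = 0.0314). The 5 listed endothelial markers did not pass the test, and 1 of them, CDH5, had an unadjusted p under 0.05, with a log2 fold change of -2.16 (adjusted p = 0.0956). Their summed level was 0.308 to 0.564 FPKM in controls against 0.268 to 0.342 FPKM with sh-LINC01977, the largest part of it from PECAM1 at a mean of 0.227 FPKM. The part of such markers in the NOTCH4 values was not tested.

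The interval of NOTCH4 overlaps that of GPSM3, which encodes a regulator of G-protein signaling and lies on the same strand, and 98 of the 9748 exonic bases of NOTCH4 are also exonic in GPSM3. GPSM3 had 192, 138 and 213 counts in controls against 520, 562 and 538 counts with sh-LINC01977, a log2 fold change of 1.55 (adjusted p = 0.00160). The ratio of NOTCH4 to GPSM3 counts was 0.214, 0.239 and 0.216 in controls against 0.233, 0.185 and 0.193 with sh-LINC01977. Both genes thus rose by a similar factor, and the part of shared reads in the NOTCH4 counts was not tested.

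The 4 receptors together came to 2.54 ± 0.074 FPKM in sh-NC cells and 2.53 ± 0.16 FPKM in sh-LINC01977 cells (SD, n = 3 each), and the library ranges overlapped. Within that sum the share of NOTCH2 was 80.4%, 85.1% and 78.8% in controls against 66.5%, 66.8% and 63.3% with sh-LINC01977. NOTCH1 made up 13.6% ± 4.2 and then 21.5% ± 2.4, NOTCH3 2.67% ± 1.2 and then 6.39% ± 2.3, and NOTCH4 2.31% ± 0.16 and then 6.60% ± 0.49 (SD, n = 3). NOTCH2 thus remained the most abundant receptor transcript in each library, and its share was smaller with sh-LINC01977. The same shares from TMM-scaled counts per kilobase of exon (added once the values were known) were 81.9% and 66.1% for NOTCH2, while the sum on that scale was 3.18 ± 0.13 in sh-NC cells and 2.99 ± 0.15 in sh-LINC01977 cells.

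**Figure D2:**
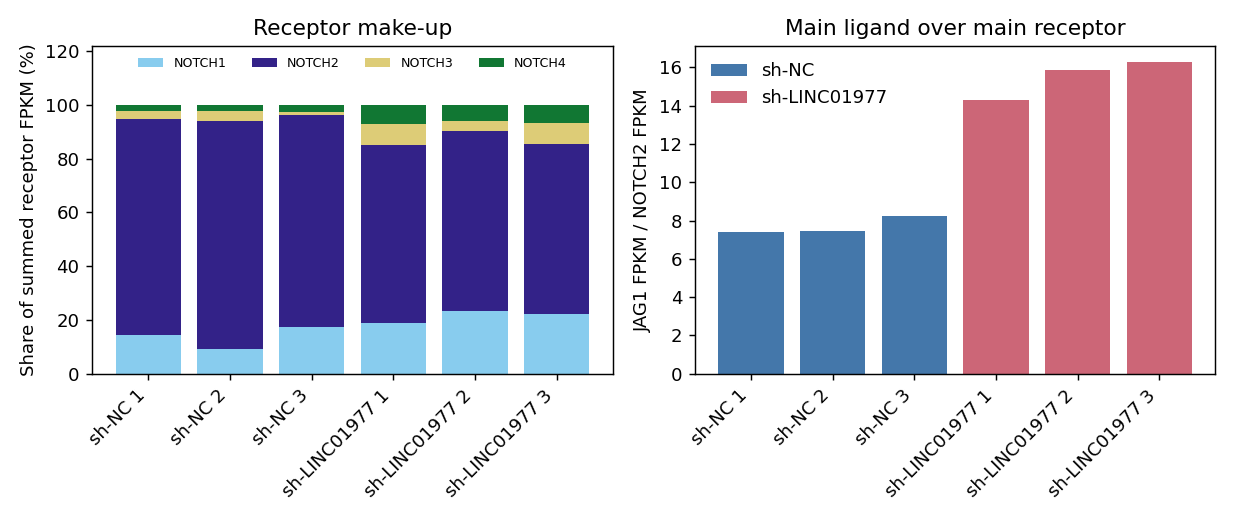
Left, the share of each receptor (%) in the summed receptor FPKM of each library, as stacked bars. Right, JAG1 FPKM divided by NOTCH2 FPKM in each library, with sh-NC in blue and sh-LINC01977 in red; the NOTCH2 share is at least 78.8% in control libraries and at most 66.8% in sh-LINC01977 libraries, and the ratio is at most 8.22 against at least 14.3.

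JAG1 (ENSG00000101384, chr20:10637684-10674107, minus strand), the ligand that carries out most known Notch signaling in bile duct formation, had the smallest error of the 10 genes. Its level was 15.6, 15.7 and 16.3 FPKM in controls against 25.0, 24.8 and 26.9 FPKM with sh-LINC01977, so that the groups were far apart. The counts ran from 8286 to 10245 in controls and from 14047 to 15758 with sh-LINC01977. The change on the log2 scale was 0.62 with an SE of 0.043 and a 95% interval from 0.52 to 0.73, which is a 1.54-fold increase (adjusted p = 7.42e-04). It passed the test in each of its 15 alternatives.

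JAG1 is the only one of the 3 ligands that was well measured, and it made up 98.9% ± 0.18 of the ligand FPKM in sh-NC cells and 98.1% ± 0.47 in sh-LINC01977 cells (SD, n = 3 each). Since JAG1 rose and NOTCH2 fell, the ratio of JAG1 to NOTCH2 FPKM was 7.42, 7.46 and 8.22 in controls against 14.3, 15.9 and 16.3 with sh-LINC01977. The mean ratio was 7.70 ± 0.45 and then 15.5 ± 1.1 (SD, n = 3 each), 2.01 times as high with sh-LINC01977. From TMM-scaled counts per kilobase of union exons the ratio was 7.06 and then 14.2. Per kilobase of the longest coding transcript (added once the values were known) it was 7.49 and then 15.1. It compares transcripts, and neither protein is analysed here. The study reports from western blots of liver cancer cells that LINC01977 knockdown reduced Notch2.

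JAG2 (ENSG00000184916, chr14:105140981-105168824, minus strand), the second Jagged ligand, had 23, 16 and 26 counts in controls against 57, 83 and 76 counts with sh-LINC01977. These are 0.0478 ± 0.0086 and 0.165 ± 0.029 FPKM (SD, n = 3 each), and the groups did not overlap. The log2 fold change of 1.68 was the largest of the 10 genes in edgeR with all libraries, with a 95% interval from 0.96 to 2.41 (adjusted p = 0.0233). JAG2 came after DLL3 without sh-NC library 2 (1.55 against 1.62) and without sh-LINC01977 library 3 (1.58 against 1.66). The call was lost in 5 of the 6 fits that each left out a library, with an adjusted p of 0.0626, 0.0685 and 0.0577 without sh-NC library 1, 2 and 3 and of 0.0823 and 0.0827 without sh-LINC01977 library 2 and 3. The log2 fold change stayed between 1.55 and 1.82 in those 6 fits. With limma on log2(FPKM + 0.1) the log2 fold change was 0.84 (adjusted p = 0.0614), below 1.08 for LFNG and 0.93 for DLL3. On log2(FPKM + 1) that of JAG2 was 0.15 (limma, adjusted p = 0.0335).

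DLL3 (ENSG00000090932, chr19:39498895-39508481, plus strand), a Delta-like ligand that acts mainly inside the cell that makes it, had 19, 27 and 20 counts in controls against 76, 76 and 31 counts with sh-LINC01977. The third sh-LINC01977 library, at 0.188 FPKM, was only just above the highest control library at 0.163 FPKM. In log2 units the change was 1.38 with an SE of 0.42, and it did not pass the test (adjusted p = 0.131). Of the other Delta-like ligands DLL4 was listed, with 40 to 60 counts in controls against 48 to 170 with sh-LINC01977 and an adjusted p of 0.401.

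LFNG (ENSG00000106003, chr7:2512529-2529177, plus strand), the lunatic fringe enzyme, was the fringe that passed the test. Its level was 0.844, 0.836 and 0.636 FPKM in controls against 1.80, 1.81 and 1.60 FPKM with sh-LINC01977, with no overlap. The log2 change came to 1.10 with an SE of 0.16 (adjusted p = 0.00748). LFNG was the only well measured gene of the 10 past a fold change of 2 at an unadjusted p of 0.05, a limit that 1.55% of the tested genes passed upwards. Without the third sh-NC library, the lowest of its group, its log2 fold change was 0.98 and that limit was missed. With limma on log2(FPKM + 1) the log2 fold change was 0.63, also under that fold. The adjusted p of LFNG stayed at or below 0.0335 in all alternatives.

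RefSeq gives LFNG 2 start sites in GRCh38.p14, and the windows from 250 bases before to 50 bases after each are shown because both hold TGGGAA, the core of the RBPJ binding motif, on one strand. Capitals mark the motif, which is read as TTCCCA where it lies on the opposite strand. The first window is chr7:2512279-2512578 and the second chr7:2517613-2517912, both on the plus strand.
LFNG start 1: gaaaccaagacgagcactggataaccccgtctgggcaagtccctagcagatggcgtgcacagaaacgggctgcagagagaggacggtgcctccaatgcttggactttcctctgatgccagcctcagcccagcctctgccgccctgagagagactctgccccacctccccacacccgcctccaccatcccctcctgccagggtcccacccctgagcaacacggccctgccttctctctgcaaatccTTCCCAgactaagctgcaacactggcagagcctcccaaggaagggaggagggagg
LFNG start 2: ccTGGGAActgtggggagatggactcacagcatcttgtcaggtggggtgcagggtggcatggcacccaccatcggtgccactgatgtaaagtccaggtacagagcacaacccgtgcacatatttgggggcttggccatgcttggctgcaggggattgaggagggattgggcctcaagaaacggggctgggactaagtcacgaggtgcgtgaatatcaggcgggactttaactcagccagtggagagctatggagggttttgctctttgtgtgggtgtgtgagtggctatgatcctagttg
Windows were found for 8 of the 10 genes, 9 windows in all, and the motif was in the 2 of LFNG and in none of the 7 of NOTCH1, NOTCH2, NOTCH3, NOTCH4, JAG1, JAG2 and RFNG. Of 35116 windows of this length 24.0% hold it on either strand, so a match is common and is given as a description. The LFNG windows have 8 and 6 CpG and that of NOTCH4 has 5, against a median of 14 over all windows, while the other 6 have between 24 and 46. MFNG and DLL3 were not matched.

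RFNG (ENSG00000169733, chr17:82047902-82051831, minus strand), radical fringe, was the most abundant of the 3 fringes. It had 6.12, 8.32 and 5.78 FPKM in controls against 8.33, 7.23 and 8.73 FPKM with sh-LINC01977. The groups overlapped, since the second control library lay above the second sh-LINC01977 library. The log2 fold change of 0.20 did not pass the test (adjusted p = 0.409), and its 95% interval from -0.15 to 0.55 leaves changes between a 0.90-fold and a 1.46-fold level. The log2 fold change was 0.37 without sh-NC library 2 (adjusted p = 0.0702) and 0.10 without sh-NC library 3 (adjusted p = 0.703). On the opposite strand GPS1, a subunit of the COP9 signalosome, shares 835 of the 3865 exonic bases of RFNG, with 5268 to 6487 counts per library and a log2 fold change of -0.16 (adjusted p = 0.0961). Whether strand was used in counting is not given in the sources used here.

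MFNG (ENSG00000100060, chr22:37469063-37486401, minus strand), manic fringe, had 1.32, 1.48 and 0.740 FPKM in controls against 2.55, 1.48 and 1.80 FPKM with sh-LINC01977. The lowest sh-LINC01977 library was level with the highest control at 3 digits, so the groups were only just apart. Its log2 fold change came to 0.65 with an SE of 0.31, and it did not pass the test (adjusted p = 0.205). It was 0.41 without sh-NC library 3 and 0.42 without sh-LINC01977 library 1. Over the 3 enzymes the share of LFNG in the summed fringe FPKM was 8.98% ± 1.2 in sh-NC cells and 14.9% ± 2.1 in sh-LINC01977 cells, and that of RFNG was 77.6% ± 3.5 and 68.8% ± 3.1 (SD, n = 3 each). The ratio of RFNG to LFNG FPKM was 7.25, 9.96 and 9.09 in controls against 4.62, 3.99 and 5.45 with sh-LINC01977, so that each sh-LINC01977 library was below each control library.

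**Figure D3:**
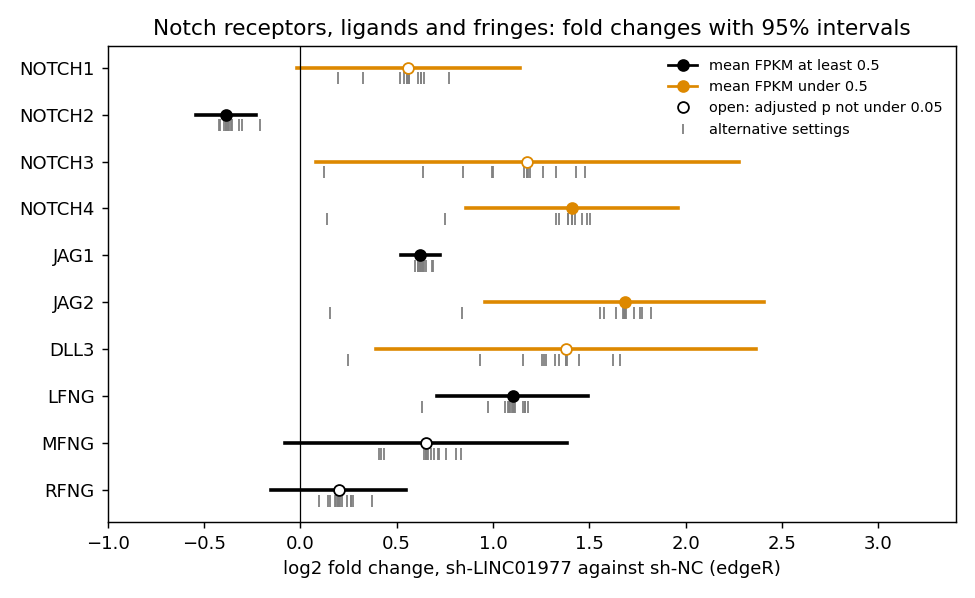
Log2 fold change of each gene with its 95% interval from edgeR (points and lines; black for well measured genes, orange for those below 0.5 FPKM, open where the adjusted p is not under 0.05) and its value under each alternative setting (grey ticks). NOTCH2 is the only gene to the left of zero, at -0.38, and the intervals of JAG1 and NOTCH2 are the narrowest.

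The precision of the well measured and the near-zero genes differed. The coefficient of variation between libraries that edgeR estimated in the fit of all genes was 0.079 for JAG1, 0.097 for NOTCH2, 0.14 for RFNG, 0.17 for LFNG and 0.28 for MFNG. It was 0.21 for NOTCH4, 0.24 for NOTCH1, 0.25 for JAG2, 0.37 for DLL3 and 0.42 for NOTCH3. NOTCH4 was thus steadier between libraries than MFNG despite its lower count. The log2 fold changes of DLL3, NOTCH4 and JAG2, and that of NOTCH3, were all above that of JAG1, yet JAG1 had the smallest adjusted p.

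All 5 genes below the filter had a log2 fold change above 0, with a median of 1.38. In the same fit 54.3% of the 15701 genes below the filter were above 0, with a median of 0.13, and 56.1% of the 4237 genes between 0.106 and 0.443 FPKM, the range of these 5, with a median of 0.10. Past a fold change of 2 at an unadjusted p of 0.05 were 4 of the 5, NOTCH3, NOTCH4, JAG2 and DLL3, all higher. The shares past that limit were 3.41% of the genes below the filter and 5.74% of those in the range of these 5. With limma on log2(FPKM + 0.1) the log2 fold changes of these 4 were 0.64, 0.75, 0.84 and 0.93, all under that fold. For NOTCH3 the log2 fold change from counts was also under that fold in some fits with a library left out. It was 0.84 without sh-NC library 3, 0.996 without sh-LINC01977 library 1 and 0.9997 without sh-LINC01977 library 3. The FPKM groups did not overlap for 4 of the 5, all higher, against 7.77% of the genes below the filter and 14.5% of those in the range. For the well measured genes they were apart upwards for JAG1, LFNG and MFNG, 3 of 5 against 25.3% of the tested genes, and downwards for NOTCH2, 1 of 5 against 13.1%.

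**Figure D4:**
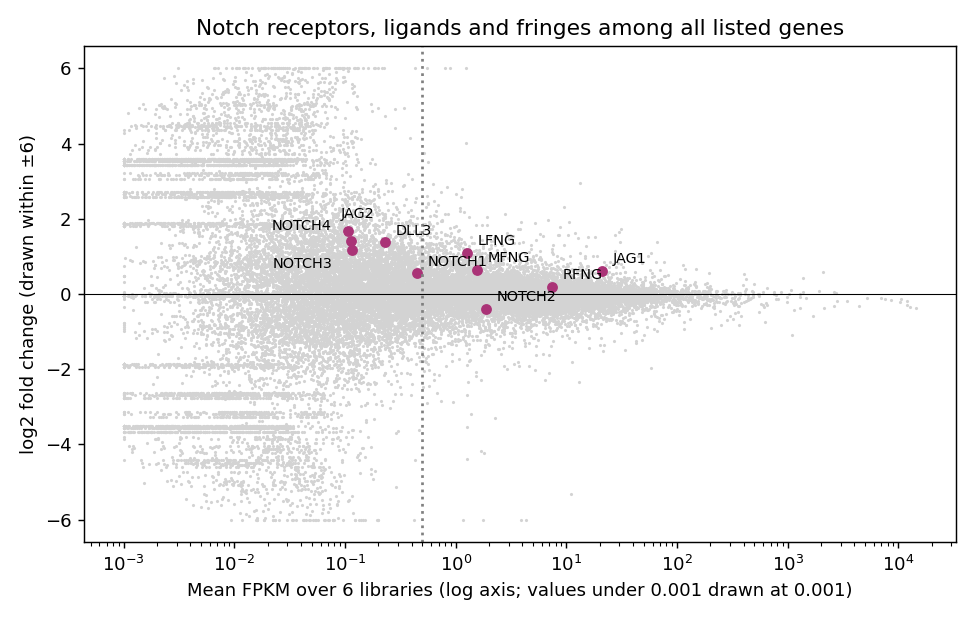
Log2 fold change (drawn within ±6) against the mean FPKM over the 6 libraries (log axis) for all listed genes in grey, with the 10 genes in purple and the filter of 0.5 FPKM as a dotted line. The spread of all genes widens to the left of the line, where NOTCH3, NOTCH4, JAG2 and DLL3 lie between 1.18 and 1.68.

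The other genes of the pathway were read from a list of 54 genes, of which 52 were in the table and 40 were well measured, while DLL1 and DTX1 are not analysed here. At an adjusted p under 0.05, 5 were higher and 4 lower, all among the 40, where the shares over all tested genes were 7.05% and 8.07%, and 43 of the 52 did not pass the test. These counts are near those shares, and nothing particular to the list is read from them. The median log2 fold change of the 40 was 0.03, against -0.001 over all tested genes. Past a fold change of 2 with an unadjusted p of 0.05 were 0 of the 52, against 1.55% of the tested genes upwards.

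On the side of the ligand cell MIB1, the ubiquitin ligase that drives the uptake of bound ligand, rose by a log2 fold change of 0.46, from 5.18 ± 0.21 to 7.43 ± 0.16 FPKM (SD, n = 3 each, adjusted p = 0.00317). The noncanonical ligand DLK1 was abundant at 20.7 ± 0.27 and 24.1 ± 1.7 FPKM, and its log2 fold change of 0.15 did not pass the test (adjusted p = 0.145). Of the 9 cleavage genes 2 rose. FURIN, which cuts the receptor during its maturation, went from 33.8 ± 0.24 to 48.4 ± 3.1 FPKM (log2 fold change 0.45, adjusted p = 0.00359), and PSENEN, a subunit of gamma-secretase, had a log2 fold change of 0.39 (adjusted p = 0.0433). The 3 listed glycosyltransferases other than the fringes, POFUT1, POGLUT1 and EOGT, did not pass edgeR's test, and 0 of them had an unadjusted p under 0.05.

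In the nuclear complex RBPJ rose, from 3.26 ± 0.13 to 4.57 ± 0.11 FPKM (log2 fold change 0.42, adjusted p = 0.00423). The coactivators MAML1 and CREBBP fell, with log2 fold changes of -0.35 (adjusted p = 0.0205) and -0.39 (adjusted p = 0.0124). Of the 12 corepressors TLE1 fell by 0.36 on the log2 scale, from 19.7 ± 1.0 to 16.0 ± 0.12 FPKM (adjusted p = 0.00748), while its relative TLE3 rose from 0.781 ± 0.11 to 1.19 ± 0.12 FPKM (log2 fold change 0.54, adjusted p = 0.0368). Among the genes of receptor trafficking and turnover DVL3 fell, with a log2 fold change of -0.25 (adjusted p = 0.0203). MIB1, FURIN, RBPJ and TLE1 kept their call in all 15 alternatives. The call was lost in 9 of 15 alternatives for MAML1, 4 of 15 for CREBBP, 8 of 15 for DVL3, 7 of 15 for PSENEN and 9 of 14 for TLE3, with adjusted p-values up to 0.0661, 0.058, 0.0726, 0.125 and 0.106, and the direction of each was kept.

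**Figure D5:**
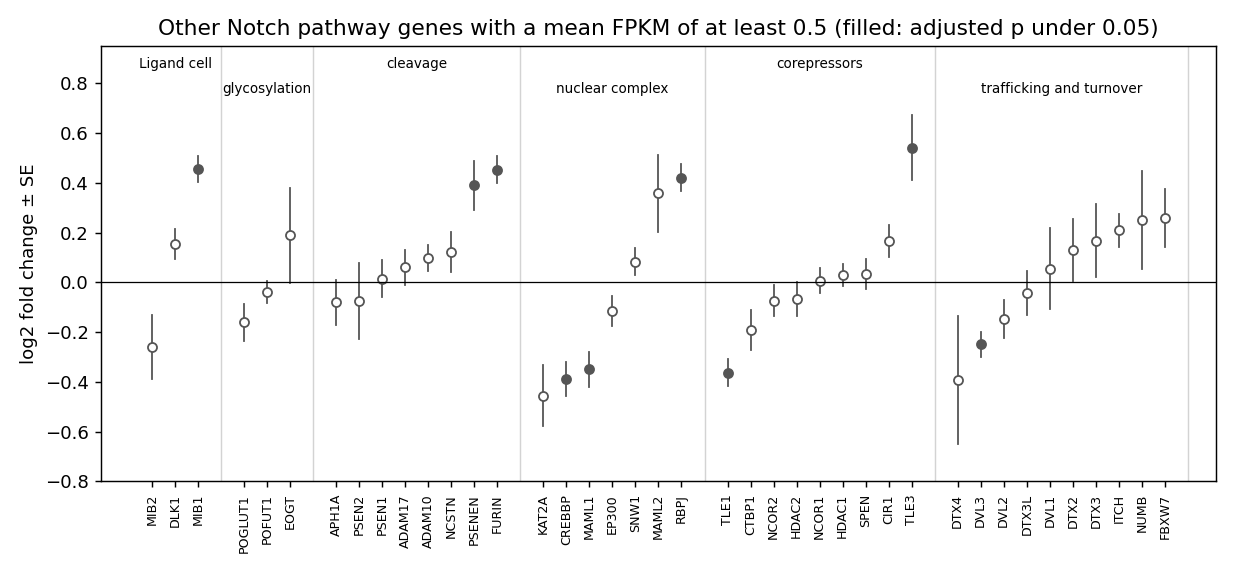
Log2 fold change ± SE of the 40 other Notch pathway genes with a mean of at least 0.5 FPKM, grouped by step, with filled points where the adjusted p is under 0.05. The 5 genes that rose and the 4 that fell lie between -0.39 and 0.54, within a narrower range than LFNG at 1.10.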

How the data were processed

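RNA was extracted with TRIzol, and libraries were sequenced on an Illumina HiSeq instrument. The submitters' processing notes name bcl2fastq 2.0, HISAT2, StringTie, DESeq2, limma and hg38 without their roles. The authors deposited counts, whole numbers per gene without normalization, and FPKM values, which the authors scaled to gene length and library size. Counts were tested with edgeR 4.0.16 (TMM, quasi-likelihood, Benjamini-Hochberg over all tested genes) in R 4.3.3, for genes averaging 0.5 FPKM or more, and in a second fit of all listed genes for those below it. Standard errors and 95% intervals come from that test. limma 3.58.1 on log2(FPKM + 0.1) or log2(FPKM + 1) and DESeq2 1.42.0 were alternatives, with other scalings and filters, counts divided by 4 (earlier work on the table had found many multiples of 4), a replicate block and each library left out. The fit was tested on simulated data. The genes and lists were chosen with earlier results of these data known. Named genes are the 10 genes, list genes past the test, DLL4, NOTCH2NL, genes overlapping a member and LINC01977; others were chosen after their values were seen. The table's intervals equal those of GENCODE 29 (GRCh38) for 8 of the 10 genes, all but NOTCH1 and JAG1. Exact permutation tests of 3 against 3 libraries allow no p under 0.1 and are not quoted. Depth, 49929024 to 60441515 counts per library, limits the genes below the filter most. Protein data are not analysed here. One neighbouring gene is not reported here.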

Additional observations from a re-analysis of the deposited data

How the results depend on the processing

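Of 145 alternative values of the 10 fold changes, 131 kept their direction and their side of the threshold, 14 kept the direction and lost the call, and 0 reversed. JAG1 and LFNG were called in all 15 alternatives. NOTCH2 lost its call with limma on log2(FPKM + 0.1) and on log2(FPKM + 1), and its adjusted p ranged from 7.41e-05 to 0.0701; the cause was not tested.

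The number of the 10 genes called higher, 4, was 2 when genes had to average 1 FPKM, where fewer genes are tested, 2 with limma on log2(FPKM + 0.1), and 2 to 3 with a library left out; the number called lower, 1, was 0 with limma at both pseudocounts. With the replicate block it was 2 higher, since NOTCH4 (adjusted p = 0.0634) and JAG2 (adjusted p = 0.0899) lost their call. The deviations of same-numbered libraries from their group had correlations near zero (r of -0.03, 0.02 and 0.06). With 3 libraries per group these values cannot exclude a pairing or a batch that acts on some genes, which was not tested.

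Of the other pathway genes, 5 were higher and 4 lower. There were 3 higher without a filter and 3 with the replicate block, and 2 lower with library totals, 1 with limma on log2(FPKM + 0.1) and 1 on log2(FPKM + 1); with a library left out, 3 to 5 were higher and 1 to 4 lower. Over all tested genes, 948 were higher and 1085 lower, against 1455 and 768 with library totals, 1269 and 729 with limma on log2(FPKM + 0.1) and 1285 and 734 on log2(FPKM + 1), and 549 to 669 higher and 627 to 738 lower with a library left out. At a fold change of 2, 209 were higher and 141 lower, against 732 and 351 without a filter, 125 higher with a filter at 1 and 59 and 41 with limma on log2(FPKM + 1), and 207 to 251 higher and 136 to 162 lower with a library left out. The ratio of JAG1 to NOTCH2, 7.70 in sh-NC and 15.5 in sh-LINC01977 cells, was 7.06 and 14.2 from TMM-scaled counts per kilobase of union exons, and 7.44 to 7.84 and 15.1 to 16.1 with a library left out. Causes were not tested.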

Other observations

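The nearest well measured gene on each side of the 10 genes, 20 in all, was read from the same fit. Of these 20, 2 were called higher and 2 lower, where the shares over all tested genes were 7.05% and 8.07%. These counts are near those shares, and nothing particular to the neighbours is read from them. SLX4IP, which encodes a DNA repair factor and ends 855 bases from JAG1, changed by 0.53 on the log2 scale (SE 0.079, adjusted p = 0.00744), close to the 0.62 of JAG1. RAC2, a small GTPase gene 224615 bases from MFNG, had a log2 fold change of 1.84 (adjusted p = 0.00251), while CARD10 on the other side of MFNG, 3961 bases away, had -0.50 (adjusted p = 0.0176).

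Of the 6 biliary markers, 1 rose, 2 fell and 3 did not pass the test. KRT19, a keratin of bile duct cells, went from 150.9 ± 9.4 to 234.4 ± 1.0 FPKM (SD, n = 3 each; log2 fold change 0.57, adjusted p = 0.00129), SPP1, which encodes osteopontin, fell by 0.59 on the log2 scale (adjusted p = 0.00130) and SOX9, a transcription factor of bile duct cells, by 0.24 (adjusted p = 0.0487). All of these values are from edgeR's quasi-likelihood test, and these genes were chosen after their values were seen.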
